A study of Mus musculus with 38 samples.

Results

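She, Draxin and Gm26835 are 3 of the 55298 genes in the deposited gene table. They were chosen on measured values, namely their UMI counts in excitatory neuron nuclei of Emx1-Cre; Trim28-flox cortex, and the choice had no numeric threshold. Their levels in those nuclei, and in bulk RNA from cortex of the same experiment, are therefore given as a description without a test. Tests are given for other cell types of the same nuclei libraries, which share animals with the choice but not nuclei, and for the other bulk experiments. The working name of the group, She and Draxin rising in excitatory neurons, covers only a portion of what the libraries held. She UMIs were also found in Trim28-KO oligodendrocytes and astrocytes and in none of the controls' nuclei of these types. Gm26835, unlike the other genes, was abundant in control neurons. None of the 3 was called in bulk RNA, where 0% to 1.33% of all genes were, but not every member had enough reads to be tested. She passed the filter on low counts only in Emx1-Cre cortex, Draxin only in NPCs and Stop-Cas9-GFP nuclei, and Gm26835 in all experiments but NPCs.

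Trim28 is a corepressor that KRAB zinc finger proteins bring to transposable elements (TEs), where it recruits the machinery that lays down the repressive mark H3K9me3. She encodes an adaptor protein with an SH2 domain, the fold that binds phosphorylated tyrosines, and belongs to the Shb family of signalling adaptors. Draxin encodes a secreted axon guidance protein that binds the netrin receptor Dcc and netrin itself, and that also antagonises Wnt signalling through the coreceptor Lrp6. Gm26835 is a predicted gene with no established role, which lies inside Hivep2, a zinc finger transcription factor gene, on the opposite strand.

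The study deleted Trim28 in neural progenitor cells (NPCs) in culture, in adult mouse neurons and in the developing cortex, and asked what this did to TEs and genes. NPCs from the embryonic forebrain of Rosa26-Cas9 mice received lentiviral guide RNAs (gRNAs) against exon 3, 4 or 13 of Trim28, with 2 cultures per guide, or against lacZ, with 2 cultures, and were sorted after 10 days. Adult Cas9-GFP mice received AAV5 gRNAs in the striatum, as did Stop-Cas9-GFP mice, in which Cas9 also needs Cre from a Synapsin (neuronal) promoter, and sorted nuclei were sequenced 2 months later from 4 Trim28-gRNA animals and 1 lacZ animal per line. Nuclei of adult Trim28-flox mice were likewise taken 2 months after AAV injection, from 4 animals labelled KO, given Cre, and 4 labelled control. Emx1-Cre deletes Trim28 in cortical progenitors. The deletion thus extends to excitatory neurons, astrocytes, oligodendrocytes and oligodendrocyte progenitors derived from them, but not to interneurons or microglia. By the labels both groups of the Emx1-Cre experiment carried Cre, although the study elsewhere calls the cortex controls Cre-negative, and which of these holds was not tested. As labelled, controls (Emx1-Cre +/-; Trim28-fl +/-) had 1 excised allele and Trim28-KO animals (Emx1-Cre +/-; Trim28-fl +/+) had both alleles excised, so the comparison is between 1 and no intact copies of the gene, and the sires also carried gtRosa (+/-). Bulk RNA came from cortex of 3 Trim28-KO animals (60, 73 and 76) and 3 controls (64, 65 and 77) at 3 months of age, and single-nucleus libraries came from 4 of these animal numbers (60 and 73 against 64 and 65).

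The 32 bulk libraries held between 8790346 and 25345083 reads on genes. The Emx1-Cre cortex library of Trim28-KO animal 76 stood apart: its gene counts differed from those of animals 60 and 73 by a chi-square per degree of freedom of 362 and 373, against 12.3 between those and 8.73 to 15.7 among the controls. Its TMM-normalised size was 0.753 times its gene reads, where the other 5 cortex libraries had 1.03 to 1.09 times, and results that rest on it are given without it as well. The nuclei libraries held 14296 barcodes, of which 13671 were kept, with a median of 8088 to 8840 UMIs (unique molecules) per nucleus and animal, and 36 barcodes occurred in more than 1 library. Clusters were named from markers: the glutamate transporter gene Slc17a7 stood at 210.6 to 266 CPM (counts scaled to 1e+06 in the sum of a cell type and animal, or, in bulk, in the TMM-normalised size of a library) in excitatory nuclei against 20.1 to 26.9 in inhibitory nuclei, Gad1 at 274 to 357 in inhibitory nuclei, and the myelin gene Mbp at 3810 to 4647 in oligodendrocytes. The targeted gene itself was lower in Trim28-KO than control NPCs, at 36.8 to 73.6 against 157 and 204 CPM, and in Emx1-Cre cortex, at 6.08 to 8.88 against 19.0 to 21.4. In the Trim28-flox experiment Trim28 went against the labels: it stood at 131 to 146 in the libraries labelled KO and at 25.6 to 31.6 in those labelled control, and directions in that experiment are given only by label. Whether these labels were exchanged was not tested. In Cas9-GFP nuclei Trim28 was 93.8 to 105 against 143, and in Stop-Cas9-GFP nuclei 88.5 to 127 against 105. In the nuclei libraries, which count 3' ends, Trim28 was 6.53 ± 0.283 against 7.78 ± 1.11 CPM in excitatory nuclei (SD, n = 2 each), and whether that end lies in the deleted portion was not tested.

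She (ENSMUSG00000046280.9) lies at chr3:89831370-89858834 on the + strand of GRCm38.p6, Draxin (ENSMUSG00000029005.4) at chr4:148098437-148130698 on the - strand, and Gm26835 (ENSMUSG00000097300.1) at chr10:13967024-14007405 on the - strand with 2 exons. Within 20 kb of the gene bodies the TE annotation held 141 copies at She, 154 at Draxin and 88 at Gm26835, of which 30, 117 and 64 had at least 1 read in the bulk libraries. Values of an intronic B2 copy in She and of another in Draxin are described further on, and their sequences are shown because the first was called in NPCs and the second was singled out after its values in NPC and Emx1-Cre libraries were seen. B2 elements are short interspersed elements derived from a tRNA gene, which carry an internal promoter for RNA polymerase III and, near their 3' end, polyadenylation signals. The sequences below were read from the RefSeq GRCm38.p6 genome, 5' to 3' on the strand of the host gene, and capitals mark the motif AATAAA. The B2_Mm2 copy in intron 2 of She (chr3:89842515-89842699, + strand) is 185 bp long, and the B2_Mm1t copy in intron 1 of Draxin (chr4:148116312-148116488, - strand) is 177 bp long.
B2_Mm2 copy in She: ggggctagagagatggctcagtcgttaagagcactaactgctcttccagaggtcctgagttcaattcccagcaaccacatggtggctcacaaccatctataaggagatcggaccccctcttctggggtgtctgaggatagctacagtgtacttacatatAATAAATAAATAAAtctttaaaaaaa
B2_Mm1t copy in Draxin: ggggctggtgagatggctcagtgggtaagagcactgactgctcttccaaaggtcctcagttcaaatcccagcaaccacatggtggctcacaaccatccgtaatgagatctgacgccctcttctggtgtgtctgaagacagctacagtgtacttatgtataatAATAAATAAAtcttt
The pair was identical at 159 of 185 aligned columns (85.9%). AATAAA occurred 3 times, overlapping, in the She copy and 2 times in the Draxin copy, and the letters GTTCNANNC, a core of the B box of the internal promoter, once in each, when the strand of the copy alone was searched. Neither motif set these copies apart: among B2_Mm2 copies of 150 to 200 bp on chromosomes 3 and 4, 75.2% of 7124 held AATAAA and 75.2% held GTTCNANNC, and among 2227 such B2_Mm1t copies 90.1% and 87.3% did.

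In excitatory neurons She was almost absent from control nuclei and present in a small fraction of Trim28-KO nuclei. Summed per animal, She stood at 14.3 and 10.6 CPM in Trim28-KO animals 60 and 73 (374 and 280 UMIs), against 0.135 and 0.0437 CPM in controls 64 and 65 (3 UMIs and 1 UMI). The groups did not overlap, and the ratio of summed UMIs, scaled to all UMIs, was 140 with a 95% counting interval of 54.3 to 515. All intervals on UMIs given here cover counting error only and were computed over 2 animals per group. In animal 60, 5.60% of 2252 excitatory nuclei had a She UMI and in animal 73 3.71% of 2343, against 0.173% of 1734 and 0.0542% of 1844 in the controls. In microglia of the same libraries, which lie outside the Emx1 lineage, She had 1 UMI in all, in 0.595% of the 168 nuclei of animal 60, and none in the 401 control nuclei, at a median depth of 1570 to 1969 UMIs per nucleus against 10397 to 11852 in excitatory neurons.

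Draxin showed the same division into a few positive and many empty nuclei. It stood at 11.2 and 13.0 CPM in the Trim28-KO animals (294 and 343 UMIs) against 0.360 and 0.394 in the controls (8 and 9 UMIs), a ratio of 32.0 with a counting interval of 19.9 to 55.4. Draxin UMIs were found in 5.64% and 5.98% of Trim28-KO excitatory nuclei and in 0.288% and 0.380% of control ones. Gm26835 behaved otherwise, since it was read in most excitatory nuclei of every animal: 472 and 476 CPM in the Trim28-KO animals and 259 and 220 in the controls, in 97.2%, 96.8%, 89.2% and 86.8% of nuclei. Its ratio was 1.98 with an interval of 1.94 to 2.03. As background to these values, 1174 of the 16251 genes fitted in excitatory nuclei (7.22%) had an edgeR adjusted p under 0.05, a share from which nothing is read for genes chosen on this contrast.

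**Figure D1:**
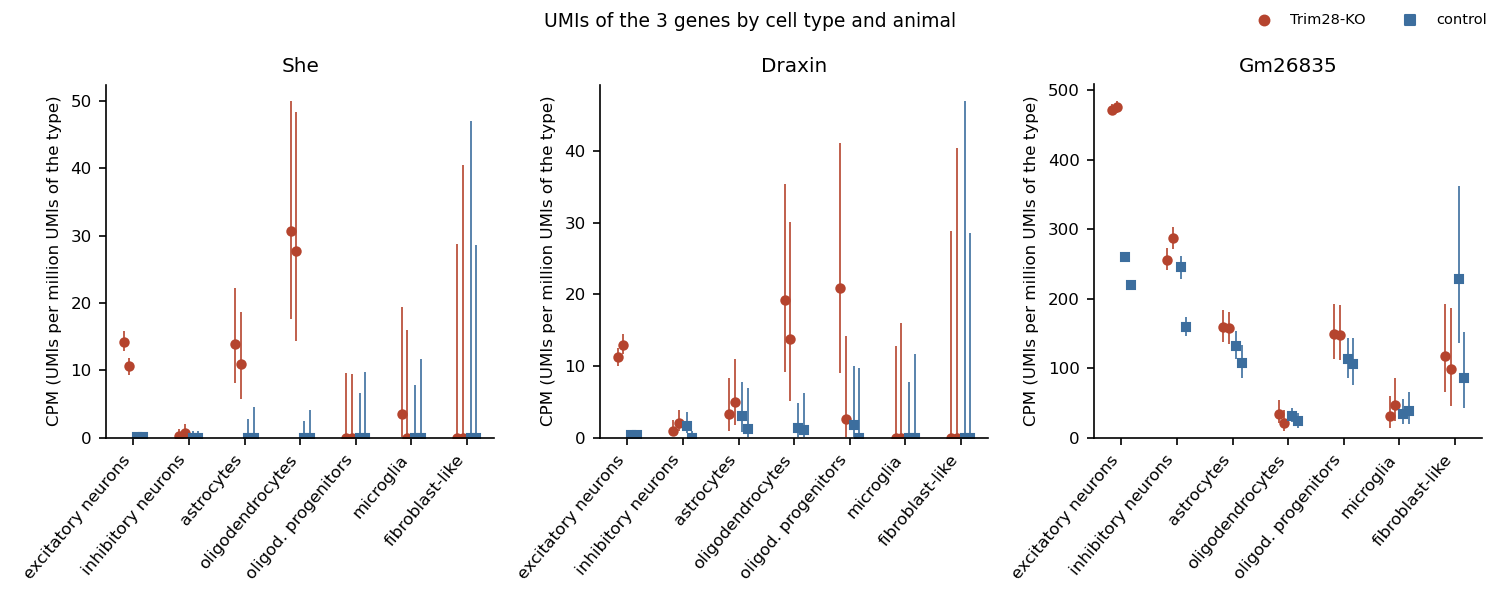
Each point is 1 animal (Trim28-KO 60 and 73, controls 64 and 65), with the cell types on the horizontal axis and CPM (UMIs of that type in that animal) on the vertical axis, in 1 panel per gene, and lines are exact 95% intervals of counting error. In both Trim28-KO animals She stood above both controls in excitatory neurons, astrocytes and oligodendrocytes and, from 4 UMIs, in inhibitory neurons. Draxin did so in excitatory neurons and, with overlapping intervals, in oligodendrocytes, astrocytes and oligodendrocyte progenitors. In oligodendrocytes only the intervals of animal 73 and control 65 overlapped. Gm26835 was highest in excitatory neurons.

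The She and Draxin UMIs were concentrated in few nuclei. Of the She UMIs in Trim28-KO excitatory nuclei, 75.1% (animal 60) and 79.3% (animal 73) lay in nuclei with at least 3 She UMIs, and single nuclei reached 21 and 12 UMIs. For Draxin the shares were 62.6% and 65.9%, with nuclei reaching 20 and 10 UMIs, whereas the 4 She UMIs of the controls each lay in a different nucleus. In animal 60, 126 excitatory nuclei had She, 127 had Draxin and 1 had both, and in animal 73 the numbers were 87, 140 and 6. How many nuclei with both would be found if the genes were read independently was not tested.

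**Figure D2:**
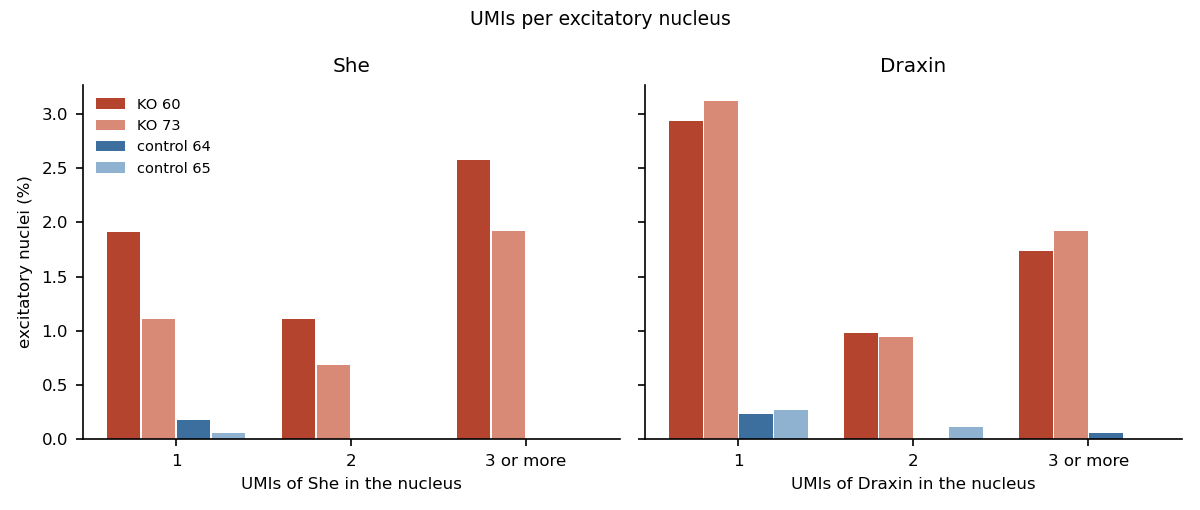
Bars give the percentage of excitatory nuclei with 1, 2 or at least 3 UMIs of She (left) or Draxin (right), with 1 bar per animal. The Trim28-KO animals had 58 and 45 nuclei with 3 or more She UMIs and 39 and 45 with 3 or more Draxin UMIs, while the controls had none for She and 1 for Draxin.

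Median depth in excitatory nuclei was lower in Trim28-KO animals (10909 and 10397 UMIs) than in controls (11852 and 11139). With every nucleus thinned to 2000 UMIs, She remained in 2.00% and 1.28% of Trim28-KO nuclei against 0.0580% and 0% of control ones, and Draxin in 1.91% and 1.88% against 0.116% and 0.164%. Thinned shares of Gm26835 were 61.8% and 60.9% against 38.2% and 35.6%.

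The excitatory nuclei fell into 8 subclusters, of which 1 (77 nuclei, led by Gm26883, 56 of them from animal 73 and none from control 64) was too unevenly filled to compare. The clustering left the 3 genes out, so that their levels across subclusters were not set by it. Draxin was highest in the subcluster led by Otof and Ccbe1, genes of upper-layer neurons, where it stood at 18.9 and 24.2 CPM in the Trim28-KO animals against 0.292 and 0.259 in controls. In the neighbouring subcluster led by Pld5 and Rorb, a middle-layer marker, Draxin was at 0.522 and 1.75 CPM in Trim28-KO animals and at 1.15 and 1.28 in controls, so that the groups overlapped there. The subcluster led by Scn7a held Draxin at 11.7 and 5.43 CPM against 0 and 0.422, and that marked by Chst8 and Npr3 at 10.1 and 7.38 against 0 in both controls, although these last values came from 36 UMIs in 6 nuclei. Draxin stood between 2.00 and 6.45 CPM in Trim28-KO animals in the subcluster led by Gm20711 and in that marked by Foxp2 and Syt6, as well as in animal 60 in that marked by Tshz2 and Slc17a8, where animal 73 had 10.7.

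She had another order across the same subclusters. It was highest in the subcluster with Chst8 and Npr3, at 44.7 and 40.9 CPM against 0 in both controls, and was found there in 19.8% and 19.0% of Trim28-KO nuclei. The subcluster with Tshz2 and Slc17a8 had 32.0 and 42.7 CPM against 1.72 (1 UMI) and 0, and the subcluster led by Gm20711 had 26.1 and 14.9 against 0.489 and 0.242. In the Otof and Ccbe1 subcluster, where Draxin was highest, She stood at 7.04 and 4.41 CPM, and in the Pld5 and Rorb subcluster it was lowest, at 3.65 and 3.90, with no UMI in the controls of either. All 7 subclusters compared thus had more She in both Trim28-KO animals than in both controls, and 6 of the 7 more Draxin. In the Tshz2 and Slc17a8 subcluster this rested on 1 Draxin UMI in animal 60 (2.00 CPM) against 1 in control 64 (1.72 CPM). How many of all genes separated the animals in this way was not tested, and nothing is read from this tally for genes chosen on this contrast. Gm26835 was higher in both Trim28-KO animals in all 7 subclusters and varied less between them, for instance at 505 and 518 CPM against 311 and 232 in the Otof and Ccbe1 subcluster and at 358 and 251 against 156 and 156 in the Tshz2 and Slc17a8 subcluster. Neurons of the Otof and Ccbe1 subcluster formed 1824 of the 4595 Trim28-KO and 1049 of the 3578 control excitatory nuclei.

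**Figure D3:**
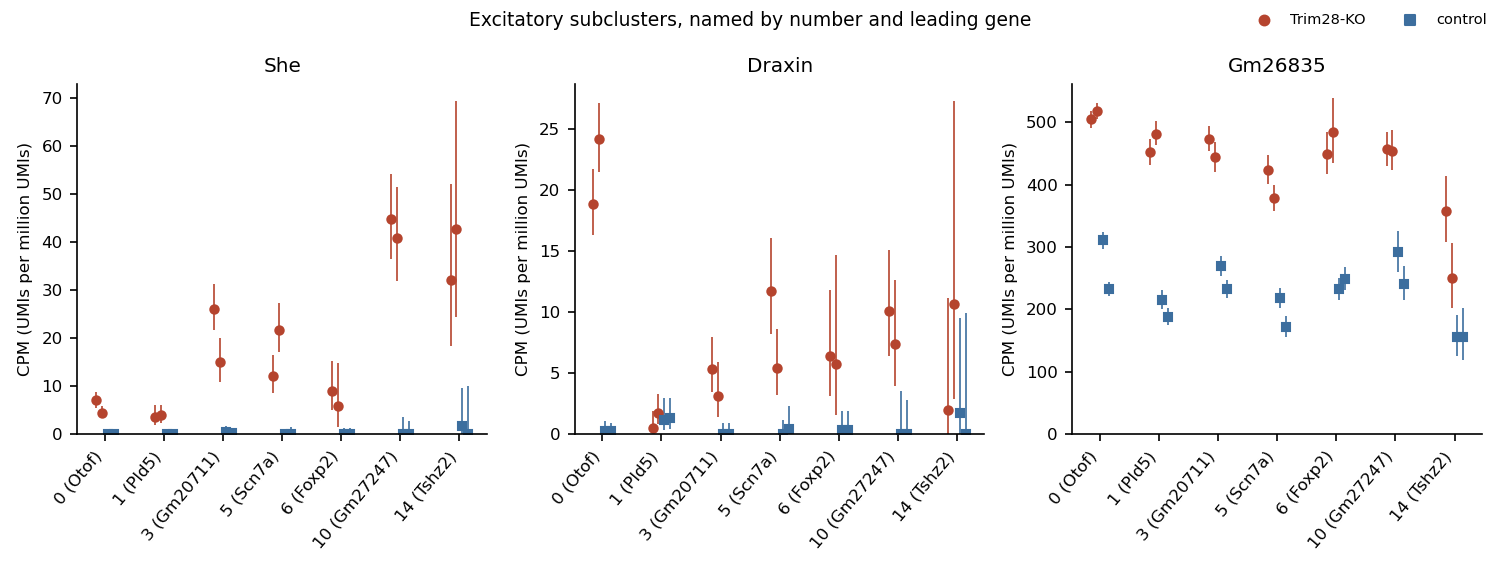
Points give each animal's CPM in the excitatory subclusters, which are named on the horizontal axis by number and leading gene, with 1 panel per gene and lines for the exact 95% counting intervals. Draxin peaked in the Otof subcluster and She in the subclusters led by Gm27247 (Chst8 and Npr3) and Tshz2, whereas Gm26835 was higher in both Trim28-KO animals in the 7 subclusters compared.

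Oligodendrocytes, which also derive in part from Emx1-expressing progenitors, held She at a higher level in CPM than excitatory neurons did. Their nuclei were shallower, at a median of 2045 and 2435 UMIs in animals 60 and 73 against 10909 and 10397 in excitatory neurons. A She UMI was found in 4.72% and 5.52% of these oligodendrocytes, against 5.60% and 3.71% of excitatory nuclei. In all, 28 She UMIs lay in 396 Trim28-KO oligodendrocytes and 654 in 4595 Trim28-KO excitatory nuclei. She stood at 30.8 and 27.6 CPM in Trim28-KO oligodendrocytes, from 16 and 12 UMIs in 11 and 9 nuclei, and no UMI was found in 912 control nuclei, which allows a share of up to 0.329%. Such limits are on nuclei with a captured UMI, not on nuclei that express the gene. Against a floor of 3 UMIs over the control group, She was 23.2-fold higher, a value that leaves out counting error in the Trim28-KO animals. Since She passed the low-count filter through the Trim28-KO animals alone, its adjusted p of 7.50e-05 in edgeR's quasi-likelihood test over 8041 genes is a fitted value from which nothing is read, and without animal 60 it did not pass that filter. In this cell type 240 genes (2.98%) were called. Slc17a7, the marker of excitatory neurons, was read in oligodendrocytes at 48.4 to 90.1 CPM, below its level in excitatory neurons. Whether RNA of other cells contributed to the She UMIs of oligodendrocytes was not tested. For every 100 Gm26835 UMIs, Trim28-KO oligodendrocytes held 104 She UMIs, astrocytes 7.81, excitatory neurons 2.62 and inhibitory neurons 0.173, so that the ratio of these genes differed between the types. Oligodendrocytes numbered 233 and 163 in the Trim28-KO and 569 and 343 in the control libraries.

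Draxin in oligodendrocytes had too few UMIs to enter that test. It stood at 19.2 and 13.8 CPM in the Trim28-KO animals (10 and 6 UMIs) and at 1.35 and 1.13 in controls (2 UMIs and 1 UMI), a ratio of 13.2 with a counting interval of 3.79 to 71.0 and no overlap between groups. How many of all genes kept 2 against 2 animals apart in this way was not tested. With no filter on low counts the edgeR adjusted p of Draxin was 0.00177, and with oligodendrocytes chosen by a marker gate over all barcodes it was 0.0125. Nothing is read from these values, since Draxin did not pass the filter of the main test and its UMIs lay mostly in the Trim28-KO animals. Without control 64 or 65 its log2 fold change lay between 3.42 and 3.69. Gm26835 did not follow: at 34.6 and 20.7 against 31.7 and 23.7 CPM its groups overlapped, with a log2 fold change of -0.03 (SE 0.40, edgeR adjusted p = 0.991). Among the Trim28-KO oligodendrocytes 20 nuclei had She, 14 had Draxin and 1 had both.

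In astrocytes She UMIs were found in the Trim28-KO animals only. She stood at 13.9 and 10.9 CPM in the Trim28-KO animals (17 and 13 UMIs in 10 and 9 nuclei), while 0 of 532 control nuclei had a UMI, which allows a share of up to 0.564%. Against a floor of 3 UMIs over the control group this was 8.73-fold higher, again without counting error in the Trim28-KO animals. The edgeR adjusted p was 0.00899 over 10314 genes, of which 233 or 2.26% were called, and is again a fitted value for a gene that passed the filter through the Trim28-KO animals alone. Without animal 73 the adjusted p was 0.156, and without animal 60 She did not pass the filter. Draxin, at 3.26 and 5.02 against 3.05 and 1.24 CPM, did not pass the filter on low counts and had 10 against 5 UMIs, a ratio of 1.75 with an interval of 0.544 to 6.51. Gm26835 stood at 160 and 157 against 132 and 108 CPM, a log2 fold change of 0.38 (SE 0.17) with an edgeR adjusted p of 0.335, although without control 64 the adjusted p was 0.0455. Slc17a7 was read in astrocytes at 39.2 to 73.3 CPM.

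Inhibitory neurons, which keep Trim28 in this model, had few She UMIs. She stood at 0.242 and 0.690 CPM (1 and 3 UMIs among 466 and 493 nuclei) against none in 772 control nuclei. Draxin was at 0.970 and 2.07 against 1.67 and 0 CPM, and neither gene passed the filter. Gm26835 stood at 256 and 287 against 245 and 160 CPM, a log2 fold change of 0.42 (SE 0.17) with an edgeR adjusted p of 0.315. No gene of 12767 (0%) was called in inhibitory neurons by edgeR, where 1834 had an unadjusted p under 0.05 and DESeq2 called 13, and without control 64 edgeR called 2884 genes, Gm26835 among them with an adjusted p of 9.86e-11. The difference between cell types was itself tested for Draxin and Gm26835 in a fit with the animal as a term. The Draxin log2 fold change in oligodendrocytes minus that in inhibitory neurons was 3.03 (SE 1.49), with an edgeR adjusted p of 0.515, and the difference for Gm26835 was -0.37 (SE 0.36), with an edgeR adjusted p of 0.832. For She that fit gave no finite error, since no control had a UMI, and the difference between types was not tested.

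Oligodendrocyte progenitors, which the study counts among the types lacking Trim28, had no She UMI in 236 Trim28-KO or 217 control nuclei. That absence allows a share of up to 1.38% of control progenitors with a captured UMI. Their Draxin UMIs were 8 and 1 in the Trim28-KO animals and 1 and 0 in the controls, and the 8 lay in a single nucleus. Gm26835 in these progenitors differed by 0.41 on the log2 scale (SE 0.22, edgeR adjusted p = 0.616), where 20 of 6682 genes (0.299%) were called. Microglia had no Draxin UMI at all, and their Gm26835 level, 31.3 and 47.7 against 33.9 and 37.9 CPM, gave a log2 fold change of 0.08 (SE 0.45, edgeR adjusted p = 0.993). In microglia 0 of 6087 genes (0%) were called by edgeR, with 430 at an unadjusted p under 0.05 and 1 called by DESeq2. Leptomeningeal fibroblast-like nuclei had neither She nor Draxin.

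By CPM, the order of levels in Trim28-KO animals was therefore oligodendrocytes (29.2 ± 2.19 CPM, SD, n = 2), then excitatory neurons (12.4 ± 2.6) and astrocytes (12.4 ± 2.12) for She, of which the last pair differed by less than the spread between animals. For Draxin it was oligodendrocytes (16.5 ± 3.82), excitatory neurons (12.1 ± 1.24) and oligodendrocyte progenitors (11.7 ± 13.0), which differed by less than or little more than that spread. For Gm26835 it was excitatory neurons (474 ± 2.74), inhibitory neurons (272 ± 21.8), astrocytes (159 ± 1.87) and oligodendrocyte progenitors (148 ± 0.835), with oligodendrocytes lowest (27.7 ± 9.80).

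In whole cortex of the Emx1-Cre experiment the groups overlapped for each of the 3 genes. Reads in bulk libraries are given as CPM of the TMM-normalised library size, from counts on exons of the same strand, whereas the UMIs of the nuclei were counted against a reference of unspliced transcripts, in which reads in introns also count. How much of the She, Draxin and Gm26835 UMIs lay in introns was not tested. She stood at 4.66, 5.74 and 5.23 in Trim28-KO animals 60, 73 and 76 and at 3.96, 4.30 and 5.60 in controls 64, 65 and 77, so the groups overlapped (log2 difference 0.18, and also 0.18 without animal 76). Per gene read, without the TMM factors, the values were 4.81, 5.97 and 3.94 against 4.30, 4.59 and 5.91, a log2 ratio of means of -0.0075, so the direction depended on the scaling. Controls 64 and 65 thus held She in whole cortex but had only 4 She UMIs in all excitatory nuclei, and in which cells those reads arose was not tested. Among the small clusters, the endothelial-like nuclei had 2 She UMIs in animal 73 and none in the controls. That subcluster held 64 nuclei, 12 of them from animal 73 and 40 and 10 from controls 64 and 65, at a median of 2422.5 UMIs. Its name is weak, since 32.0% of its 25 nuclei that passed a marker gate were endothelial. Nothing is read from the absence of UMIs in so few nuclei. In such bulk samples, fewer cells of a type and less RNA per cell cannot be told apart.

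Draxin had 5, 2 and 0 reads in the Trim28-KO and 3, 3 and 4 in the control cortices, and did not pass the filter. Gm26835 had 0.57, 1.09 and 1.82 CPM against 0.944, 1.25 and 1.33, a log2 difference of -0.07 with overlapping groups, which was -0.47 without animal 76. In this experiment 216 of 16271 genes (1.33%) passed both the adjusted p (under 0.05) and the size of change asked for (beyond 0.5 on the log2 scale), none of which was a member, and 344 genes did without animal 76.

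The remaining bulk experiments took no part in the choice of genes. In NPCs Draxin was well expressed and varied more within groups than between them. The cultures of each guide are given in the order of their label numbers, which fall into an earlier and a later series. Draxin stood at 156 and 11.3 CPM for guide 3, 20.9 and 8.11 for guide 4 and 40.7 and 17.0 for guide 13, and at 67.1 and 18.9 in the lacZ cultures. The log2 fold change was -0.02 (SE 1.05, edgeR adjusted p = 1.00), and 32 of 16469 genes (0.194%) were called. The earlier culture was the higher for every guide and for lacZ, and with the series as a replicate block the log2 fold change was -0.28 (SE 0.62, edgeR adjusted p = 0.975). She had at most 2 reads in any NPC library and Gm26835 at most 7, and neither was tested.

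In nuclei of adult neurons Draxin and She were at the limit of detection. She had no read in Cas9-GFP or Stop-Cas9-GFP libraries and 1 read in all 8 Trim28-flox libraries. Draxin had 0 to 5 reads in the Cas9-GFP libraries with Trim28 gRNAs against 5 in the lacZ library, and in the Stop-Cas9-GFP libraries 12 reads with guide 4 and none with the other guides, against 3 (log2 fold change -0.24, SE 2.94, edgeR adjusted p = 1.00). In the Trim28-flox libraries it had 1 or 2 reads with the KO label and 0 to 3 with the control label.

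Gm26835 was the member read in all of these nuclei. In Cas9-GFP animals it stood at 2.38 (guide 13), 1.90 (guide 3), 1.6 (guides 3, 4 and 13) and 2.22 (guide 4) CPM against 0.196, which was 2 reads, in the lacZ animal. The 4 libraries were all above the control, with a log2 fold change of 3.29 (SE 1.23), but the edgeR adjusted p was 0.532 with a single control library, whose spread is assumed to be that of the others. In Stop-Cas9-GFP animals the corresponding values were 5.49, 1.73, 3.48 and 1.04 against 1.58, so that the control lay among them (log2 fold change 0.89, SE 0.98, edgeR adjusted p = 1.00), and a fit of both lines together gave 1.68 (SE 0.79, edgeR adjusted p = 0.788). The Trim28-flox libraries ranged from 0.611 to 1.49 with the KO label and from 0.730 to 1.45 with the control label (log2 fold change -0.03, SE 0.38, edgeR adjusted p = 0.997). Background in these experiments was low: 0 of 19004 genes (0%) were called in Cas9-GFP and 0 of 18777 (0%) in Stop-Cas9-GFP by edgeR, against 1560 and 459 at an unadjusted p under 0.05 and 25 and 1 called by DESeq2, and 7 of 17102 (0.0409%) in Trim28-flox.

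**Figure D4:**
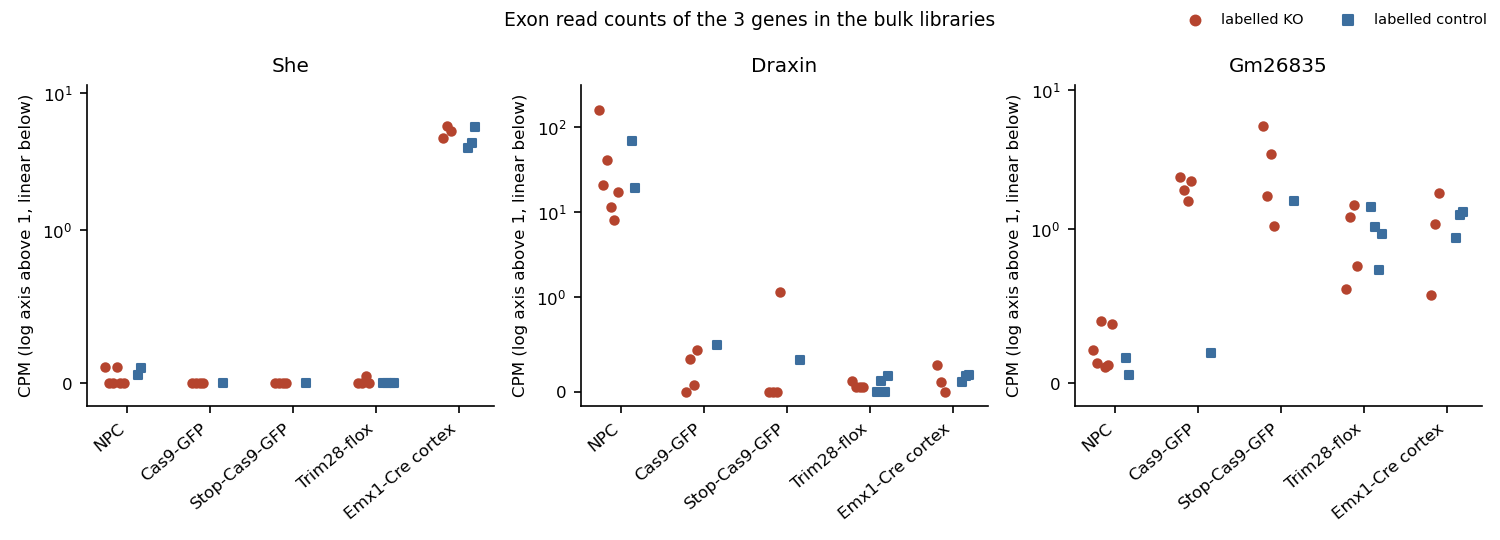
Each point is 1 bulk library, with the 5 experiments on the horizontal axis, the group as labelled by colour and CPM of the TMM-normalised library size on the vertical axis (a log axis above 1, linear below). She overlapped between groups in Emx1-Cre cortex and was at or near 0 elsewhere, Draxin ranged from 8.11 to 156 in Trim28-KO NPCs around the controls, and Gm26835 was above its single control in all Cas9-GFP libraries.

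At the B2_Mm2 copy in intron 2 of She, whose sequence is given above, reads were present in every Trim28-KO NPC culture. They numbered 40 and 24 for guide 3, 33 and 39 for guide 4 and 25 and 63 for guide 13, against 0 and 1 in the lacZ cultures. The ratio per gene read was 87.2 with a counting interval of 15.5 to 3460, and over all 35091 copies tested edgeR gave a log2 fold change of 6.24 (SE 0.99, adjusted p = 0.00773). The copy passed the filter through the Trim28-KO cultures alone and is named because it was called, so nothing is read from that p. This was the only copy near She to pass the filter in NPCs, and it alone was called among the copies tested there near the 3 genes (1 near She, 24 near Draxin and 0 near Gm26835), beside 193 of 35091 copies (0.55%) overall. The call was lost without either lacZ culture, with an edgeR adjusted p of 0.123 without the earlier culture and 0.0701 without the later. She itself had at most 2 exonic reads in the same cultures, so the reads on this copy were not accompanied by reads on the exons of its host gene.

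The same copy had few reads elsewhere. In Emx1-Cre cortex it had 6, 3 and 0 reads in Trim28-KO animals 60, 73 and 76 and none in the 3 controls. Over the group this is 3.66-fold higher than a floor of 3 reads, without counting error in the Trim28-KO animals, although animal 76 overlapped the controls. The Cas9-GFP libraries held 5 reads with guide 13 and none otherwise, and the Stop-Cas9-GFP libraries none. In the Trim28-flox experiment the 4 libraries labelled KO had none, and those labelled control had 4, 5, 4 and 4, in the direction opposite to the labels, as for Trim28 itself.

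The B2_Mm1t copy in intron 1 of Draxin was singled out after its values were seen and is described without a test. In Emx1-Cre cortex it had 11, 15 and 8 reads in Trim28-KO animals 60, 73 and 76 against 1, 0 and 0 in controls 64, 65 and 77, with no overlap and a ratio of 41.5 with a counting interval of 6.96 to 1685, and it did not pass the filter on low counts. Without animal 76, whose library stands apart, 11 and 15 reads remain in the Trim28-KO group. These were all of the reads on the 38 same-strand TE copies in introns of Draxin in that experiment, whereas the exons of Draxin had 7 reads in the Trim28-KO and 10 in the control libraries. In NPCs the copy had 5 and 10 reads for guide 3, 7 and 15 for guide 4 and 3 and 12 for guide 13, against none in either lacZ culture. Over the group this is 6.75-fold higher than a floor of 3 reads, without counting error in the Trim28-KO cultures. It had none in Cas9-GFP libraries, 2 in 1 Stop-Cas9-GFP library, and in Trim28-flox 1, 0, 0 and 0 with the KO label and 0, 0, 0 and 4 with the control label.

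**Figure D5:**
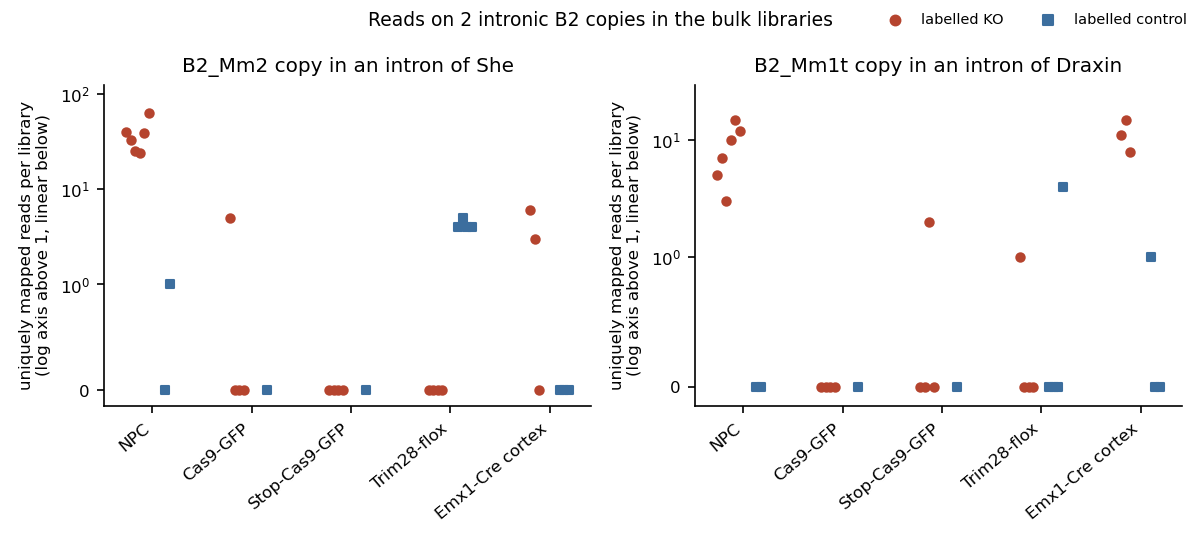
Points give the reads in each bulk library on the B2_Mm2 copy in She and the B2_Mm1t copy in Draxin, by experiment and labelled group, with reads on the vertical axis (a log axis above 1, linear below). In NPCs all 6 Trim28-KO cultures had 24 to 63 reads on the She copy and 3 to 15 on the Draxin copy, against at most 1 in the controls, and in Emx1-Cre cortex the Draxin copy had 8 to 15 against at most 1.

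In the main fits no other TE copy within 20 kb was called in any experiment. With the culture series as a replicate block, the B2_Mm1t copy in Draxin was also called in NPCs (edgeR adjusted p = 0.0109). Nothing is read from that call, since the copy was singled out after its values were seen. Near Draxin 24, 4, 4, 4 and 1 copies were tested in NPCs, Cas9-GFP, Stop-Cas9-GFP, Trim28-flox and Emx1-Cre cortex, and near Gm26835 8, 7 and 4 in the Cas9-GFP, Stop-Cas9-GFP and Trim28-flox nuclei, where 0.165%, 0.0129% and 0.00644% of all copies tested were called, against 2.73% in Emx1-Cre cortex. The copies with the most reads near Draxin (a B4A, an ID4_ and a PB1 copy) lay about 19 kb upstream and those near Gm26835 (an MTD, a B1_Mur2 and an RSINE1 copy) between 5083 and 6496 bp upstream. The MTD copy, for example, had 47 to 130 reads in Cas9-GFP libraries with Trim28 gRNAs against 49, and 42 to 51 against 69 in Stop-Cas9-GFP libraries. Same-strand TE copies in introns of Gm26835 had 1, 0 and 5 reads in Trim28-KO cortex and 4, 0 and 2 in control cortex.

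Neighbouring genes were followed in the same fits. Of the genes within 100 kb that were tested, none was called in any bulk experiment or cell type. Over all genes, 0% to 1.33% were called in the bulk experiments and 0% to 7.22% in the cell types. Nothing is read from the absence of calls among so few neighbours. In excitatory nuclei the neighbours tested were 6 genes near She, 8 near Draxin and 2 near Gm26835. Il6ra, the interleukin-6 receptor gene 5225 bp from She, differed by 0.08 (SE 0.26, edgeR adjusted p = 0.872) on the log2 scale in excitatory nuclei, and Mad2l2, which overlaps the start of Draxin on the opposite strand, by -0.05 (SE 0.18, edgeR adjusted p = 0.883). Hivep2, which contains Gm26835, differed by 0.46 (SE 0.12, edgeR adjusted p = 0.0668) in excitatory nuclei, by -0.06 in inhibitory neurons and by 0.04 in whole cortex. Both bulk reads and UMIs were counted by strand, so that Hivep2 and Gm26835 were counted apart, as were Mad2l2 and Draxin.

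Relatives and partners of the 3 genes were followed in 83 genes of 5 lists, covering other SH2 adaptors, the Shb family, netrin ligands and receptors, Wnt receptors and inhibitors, and other guidance cues. In excitatory nuclei 7 of the 69 tested (beside 7.22% of all genes) were called, all of them lower in Trim28-KO. They were the Shb family founder Shb (log2 fold change -1.13, edgeR adjusted p = 0.0444), netrins Ntn1 (-2.01, 0.0208) and Ntn4 (-1.43, 0.0146), Wnt inhibitors Dkk2 (-1.05, 0.0422) and Sfrp1 (-1.67, 0.0383), and the repulsive cues Sema3e (-0.93, 0.0183) and Slit2 (-0.66, 0.0448). Mean levels were low for Sfrp1 (0.78 CPM), Ntn1 (1.17), Dkk2 (4.17), Shb (4.23) and Ntn4 (10.1), against 37.1 for Sema3e and 198 for Slit2. With DESeq2 14 of 80 were called, 2 higher and 12 lower, and without control 64 or 65 edgeR called none of all genes. The Draxin receptor Dcc differed by -0.36 (edgeR adjusted p = 0.0851), and Shf and Shd, the other adaptors of the Shb family, by 0.08 and 0.16. The 9 netrin genes tested had a median log2 fold change of -0.41, the 25 Wnt genes of -0.16 and the 15 SH2 adaptors of 0.18, against 0.01 over all genes. All these values rest on sums over excitatory nuclei that differed in make-up. The Foxp2 and Syt6 subcluster held 240 of 4595 Trim28-KO and 542 of 3578 control nuclei, and the Otof and Ccbe1 subcluster 1824 and 1049. Whether this contributed to the lower values was not tested.

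In other libraries fewer list genes were called, as were fewer of all genes. In whole Emx1-Cre cortex 3 of 73 were called (beside 1.33% of all genes), again lower: the Wnt receptors Fzd2 (-1.26, edgeR adjusted p = 0.00154) and Fzd10 (-1.22, 0.0483), and Sema3e (-0.55, 0.0460). Mean levels were 4.03 CPM for Fzd2, 1.69 for Fzd10 and 31.3 for Sema3e. These calls include the library of animal 76, and their values without it are not given. Sema3e was therefore the only list gene called in both the nuclei and the tissue, which share 4 animals. In astrocytes 2 of 45 were called (beside 2.26% of all genes), Unc5c lower and Robo1 higher. None was called by edgeR or by DESeq2 among 36 in oligodendrocytes (beside 2.98% of all genes by edgeR) or 57 in inhibitory neurons (0%). The same held among 69 in NPCs (0.194%), 72 in Cas9-GFP (0%), 69 in Stop-Cas9-GFP (0%) and 65 in Trim28-flox libraries (0.0409%). Ntn1 in NPCs, at -1.36, had an edgeR adjusted p of 0.388.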

How the data were processed

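The study sequenced poly-A RNA of NPC cultures, sorted nuclei and cortex with a stranded kit, and single nuclei with a 3' kit. Per the file headers and the submitters' notes, the authors aligned bulk reads with STAR 2.6.0 to GRCm38.p6 and counted uniquely mapped reads by strand with featureCounts (Subread 1.6.3), and deposited whole-number counts per gene and per TE copy. A further deposited table of TEtranscripts gives estimated counts with reads of several matches divided among them. Nuclei UMI counts were made by the authors with Cell Ranger 3.0 on a pre-mRNA reference. The 3' end of a transcript is favoured in the nuclei, and unique mapping lowers the counts of young TE copies with near-identical relatives. A table of mean CUT&RUN coverage over other elements was not used, nor were 6 TE table columns that match no sample. Columns headed flexcas were read as the Stop-Cas9-GFP libraries, the remaining Cas9 line.

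From these files, nuclei beyond 3 median absolute deviations in gene number were left out (625 of 14296, the study's filter), and the others were clustered with Seurat 5.3.0 (2000 variable genes without the 3 members, 20 principal components, resolutions 0.1 and 0.5). No doublet caller was run. Sums of UMIs were taken for each type and animal. Counts were tested with edgeR 4.0.16 (R 4.3.3, TMM, filterByExpr, quasi-likelihood test, Benjamini-Hochberg adjustment over all genes or copies of a comparison, threshold 0.05, in bulk also a log2 fold change beyond 0.5), each comparison on its own libraries. CPM of bulk genes are per TMM-normalised library size, and those of nuclei per UMI sum. TE copies used the library sizes of the genes. A floor of 3 counts over a group stands for a count of 0, and intervals are exact at 95%. The alternatives were DESeq2 1.42.0, upper-quartile factors, no filter, TEtranscripts counts, marker gates per nucleus, thinning to 2000 UMIs, other windows and leaving out each library. The scripts were tested on simulated data. Replicates differed beyond counting noise in all 46 pairs (chi-square per degree of freedom 7.73 to 373), and p-values measure the spread between these samples.

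The genes, lists and tests were chosen with earlier results of these data known. The named genes are the 3 members and Trim28, list genes called or among the 2 highest of a list, neighbours within 100 kb, TE copies within 20 kb that were called or among the 3 highest, and the 5 genes most like each member by Pearson correlation. NPC cultures carry label numbers of an earlier and a later series: deviations from the group means correlated at 0.532 to 0.706 over 16469 genes in all 6 guide pairings, so the series was used as a replicate block, under which Draxin had a log2 fold change of -0.28 (adjusted p = 0.975).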

Additional observations from a re-analysis of the deposited data

Results flagged for a closer look

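Of 24 groups of 4 or 6 libraries compared, 9 held a library set apart from the rest of its group in Draxin, She or a B2 copy. How many would be flagged by chance at such low counts was not tested. Draxin stood at 156 CPM in the earlier NPC culture of guide 3, far above the other Trim28-KO cultures, at 1.14 in the Stop-Cas9-GFP library of guide 4, where the other 3 had none, and at 0.111 (2 reads) in 1 library labelled Trim28-flox KO. She stood at 0.0481 (1 read) in another with the same label. The B2_Mm2 copy in She had 5 reads in the Cas9-GFP library of guide 13, where the others had 0, and 5 in 1 library labelled Trim28-flox control, where the others had 4. The B2_Mm1t copy in Draxin had 4 reads in 1 Trim28-flox library labelled control and 1 in 1 labelled KO, where the others had 0, and 2 in the Stop-Cas9-GFP library of guides 3, 4 and 13. Most of these values are at the limit of detection, since 1 to 5 reads decide them.

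The B2_Mm2 copy in She moved in opposite directions by label in 2 experiments. The mean read count of the libraries labelled KO minus that of the controls was 36.8 in NPCs and -4.25 in Trim28-flox nuclei, with no overlap in either, and the difference between the experiments was not tested. Trim28 itself was higher in the libraries labelled KO of that experiment, at 131 to 146 against 25.6 to 31.6 CPM.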

How the results depend on the processing

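With 2 animals per group, or 1 or 2 controls in bulk, single libraries decide many counts of calls. Of the alternative values, 220 stayed on their side of the threshold or within the spread, 76 moved, 6 passed the threshold anew and 3 lost it, and no called direction reversed. The causes of these shifts were not tested. On leaving out a library, log2 fold changes that were not called changed sign for Draxin in NPCs (-1.13 to 1.16) and Stop-Cas9-GFP (-0.24, or up to 0.16) and for Gm26835 in Trim28-flox (-0.28 to 0.17), microglia (-0.21 to 0.39), oligodendrocytes (-0.45 to 0.27) and Emx1-Cre cortex. Under other settings the sign also differed for Draxin in NPCs (0.02 with upper-quartile factors) and, with the marker gates, for Gm26835 in microglia (-0.08 per nucleus) and oligodendrocytes (1.12 per nucleus). Chosen after seeing the data, a scaling to gene reads without TMM factors gave She in Emx1-Cre cortex a log2 ratio of -0.0075. Marker gates gave Draxin in excitatory nuclei a log2 fold change of 5.10 per nucleus and 5.10 with all barcodes, and in oligodendrocytes 3.57 with all barcodes and 3.51 with no filter. Thinned to 2000 UMIs, She, Draxin and Gm26835 were in 1.64%, 1.90% and 61.3% of Trim28-KO excitatory nuclei.

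Genes called by DESeq2 were 146 in NPCs, 25 in Cas9-GFP, 1 in Stop-Cas9-GFP, 37 in Trim28-flox, 108 in astrocytes, 13 in inhibitory neurons, 1 in microglia, 7 in oligodendrocyte progenitors and 88 in oligodendrocytes. With no filter they were 131 in Cas9-GFP, 18 in Stop-Cas9-GFP, 19 in Trim28-flox, 546 in Emx1-Cre cortex, 415 in astrocytes, 0 in excitatory neurons, 87 in microglia and 68 in oligodendrocyte progenitors. TEtranscripts counts gave 4, 1 and 11 in Cas9-GFP, Stop-Cas9-GFP and Trim28-flox, and the gate per nucleus 129 in oligodendrocytes. DESeq2 called 14 list genes in excitatory neurons and 1 in astrocytes. With the culture series as a replicate block, 136 genes and the B2_Mm1t copy (log2 fold change 6.29) were called in NPCs. With TE library sizes that copy had a log2 fold change of 5.04 in Emx1-Cre cortex.

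Leaving out each library in turn gave calls from 2 to 58 in NPCs, 0 to 7 in Cas9-GFP, 104 to 344 in Emx1-Cre cortex, 0 to 513 in excitatory neurons, 65 to 980 in astrocytes, 94 to 683 in oligodendrocytes, 13 to 2884 in inhibitory neurons, 19 to 150 in oligodendrocyte progenitors and 0 to 61 in microglia. Log2 fold changes ranged in excitatory neurons from 6.45 to 7.93 for She, 4.83 to 5.05 for Draxin and 0.85 to 1.04 for Gm26835, in astrocytes from 6.76 to 6.96 for She and 0.23 to 0.59 for Gm26835, and for Gm26835 from 0.15 to 0.75 in inhibitory neurons and -0.47 to 0.27 in Emx1-Cre cortex. The B2_Mm2 copy in NPCs ranged from 5.45 to 8.38. The marker gate could not be run for oligodendrocyte progenitors, since too few nuclei passed it.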

Other observations

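The genes whose levels over the 28 sums of 7 cell types and 4 animals were most like those of She, by Pearson correlation of log2 CPM, were Fbxw19 (0.857), Fbxw16 (0.851) and Mnd1 (0.837), followed by BC048671 (0.766) and Gm42493 (0.752). Fbxw19, a member of a family of F-box genes, had a median of 726 CPM in Trim28-KO oligodendrocytes and 39.8 in Trim28-KO astrocytes against 0 in controls, but 0.912 in Trim28-KO excitatory neurons, so that its level relative to She differed between the types. Mnd1, a meiotic recombination gene, stood at 16.4 against 1.71 CPM in excitatory neurons and at 340 against 0.337 in oligodendrocytes. Draxin was most like Tcfl5 (0.793) and Mnd1 (0.777), and Gm26835 most like Hivep2 (0.938), its host locus, and Pde10a (0.922). She and Draxin correlated with each other at 0.698, and She and Gm26835 at -0.02. These are descriptions, since the sums share animals and libraries.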
